A study of Mus musculus with 6 samples.

Results

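The 37 genes of the mouse mitochondrial genome were examined in RNA-seq libraries of brain tissue from mice overexpressing the human long noncoding RNA *AP1AR-DT*. They are the rows that the deposited table places on chromosome MT, 37 of the 52390 rows listed, and comprise 13 genes for mRNAs, 2 for ribosomal RNAs and 22 for transfer RNAs. The study asked what a gain of *AP1AR-DT*, which it links to bipolar disorder, does in the mouse brain. All mice were male and wild type C57BL/6, and as young adults all had a recombinant adeno-associated virus (AAV) injected into the medial prefrontal cortex. In the 3 *AP1AR-DT* OE mice the virus carried *AP1AR-DT* (AC109347.1 in the labels) driven by the human synapsin I promoter, a neuronal promoter, with EGFP under the CMV promoter. The 3 control mice received an empty AAV vector. The labels give the tissue as brain, while the paper names the medial prefrontal cortex in one place and cortex in another. *AP1AR-DT* is a human gene that is not listed among the mouse genes, so its level could not be checked in these libraries.

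Mitochondria keep a small circular genome that codes for core subunits of the respiratory chain (complexes I, III and IV) and of the ATP synthase (complex V), together with the rRNAs and tRNAs needed to translate them inside the organelle. Both strands are copied as long precursors by the polymerase POLRMT with the factor TFAM, and the tRNAs that lie between the other genes are cut out to release the mRNAs and rRNAs. The remaining subunits of the chain come from nuclear genes, and neurons depend on this machinery for most of the ATP spent on synaptic signaling.

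The libraries held between 42061721 and 54668294 counts, and 21844 genes had enough counts to be tested, all 37 mitochondrial (mt) genes among them. Control 3 stood apart. Its 9 tested choroid plexus markers summed to 4057 normalized CPM (counts relative to library size, with TMM scaling), against 58.6 to 77.1 in the other 5 libraries, and its 8 oligodendrocyte markers summed to 10965 against 5197 to 6620. The 12 neuron markers were present in every library, at 6608 to 8272 normalized CPM in control mice and 7443 to 8777 in *AP1AR-DT* OE mice. Microglia markers had a median Log2FC of 0.22 (3 of 8 called higher) and endothelial and pericyte markers 0.30 (2 of 8 higher). Ependyma markers were at -0.82 (2 of 6 lower) and choroid plexus markers at -3.51 (6 of 9 lower). Oligodendrocyte markers were at -0.30 (2 of 8 lower) and astrocyte markers at -0.13 (2 of 9 lower). Neuron markers were at 0.14 (2 of 12 higher, 1 lower). Over all tested genes 5.10% were called higher and 7.15% lower. The part of these cell types in the results was not tested. The columns of the *AP1AR-DT* OE libraries name the group and not the mouse, so they are called A, B and C. In bulk tissue, fewer mitochondria-rich cells and less mitochondrial RNA per cell cannot be told apart.

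The nuclear genome holds copies of mitochondrial sequence, and rows for such copies held many counts in these libraries. A search of annotated transcripts, at a minimum of 95% identity over 100 bases, found 11 nuclear pseudogene rows that match mt genes. The 7 on chromosome 1 align with *mt-Co2*, *mt-Atp6*, *mt-Co3*, *mt-Nd3* and *mt-Nd4l* and with parts of *mt-Co1* and *mt-Nd4*. The copy of *mt-Co3*, *Gm28437*, is identical to it over 783 aligned bases, which include the following first 90 bases of both (GENCODE transcripts, GRCm38, none in capitals because none differs).
*mt-Co3* and *Gm28437*: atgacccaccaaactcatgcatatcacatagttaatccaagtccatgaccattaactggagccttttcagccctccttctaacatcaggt
In 2 of the 7 pairs a single aligned base differs, shown in capitals in these stretches. Counted from 1 at the 5′ end of the mt gene, the change from mt gene to copy is A1066T in *mt-Co1*, where the alignment starts a few bases before it, and T3C in *mt-Nd3*.
*mt-Co1*: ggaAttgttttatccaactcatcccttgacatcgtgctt
*Gm29216*: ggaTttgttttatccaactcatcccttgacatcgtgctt
*mt-Nd3*: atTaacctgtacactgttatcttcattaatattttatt
*Gm28438*: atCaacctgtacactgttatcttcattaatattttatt
The authors aligned with Bowtie2 at its default settings, under which a read with equally good places is given to one of them.

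The counts of the copies followed the extent of the shared sequence, and whether their reads came from the organelle or the nucleus was not tested. *Gm28437* held between 49.8% and 50.2% of the counts of its pair with *mt-Co3* in the 6 libraries. *Gm10925* held between 50.6% and 50.8% of the counts it shares with *mt-Atp6*. *Gm29216*, which aligns with 31.3% of *mt-Co1*, held between 12.6% and 13.7%. For the copies of *mt-Co2* and *mt-Nd4l* the shares also lay near an even split, while *Gm28438*, which has the T3C change, held between 46.1% and 47.5%. The 4 rows on chromosomes 2 and 13, whose identity to the mt genes is at most 97.6%, had mean counts of 369 or fewer. The levels of *mt-Co1*, *mt-Co2*, *mt-Co3*, *mt-Atp6*, *mt-Nd3*, *mt-Nd4l* and *mt-Nd4* as deposited therefore count part of the reads that match these genes. Added to the mt mRNAs, the nuclear copies raised the mRNA share of all counts from 7.44% ± 1.34 to 9.53% ± 1.69 (SD, n = 3) in control mice. tRNA genes are shorter than the 100 bases required and *mt-Atp8* has no annotated copy, so reads of these genes that fell on nuclear sequence were not analysed here.

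**Figure D1:**
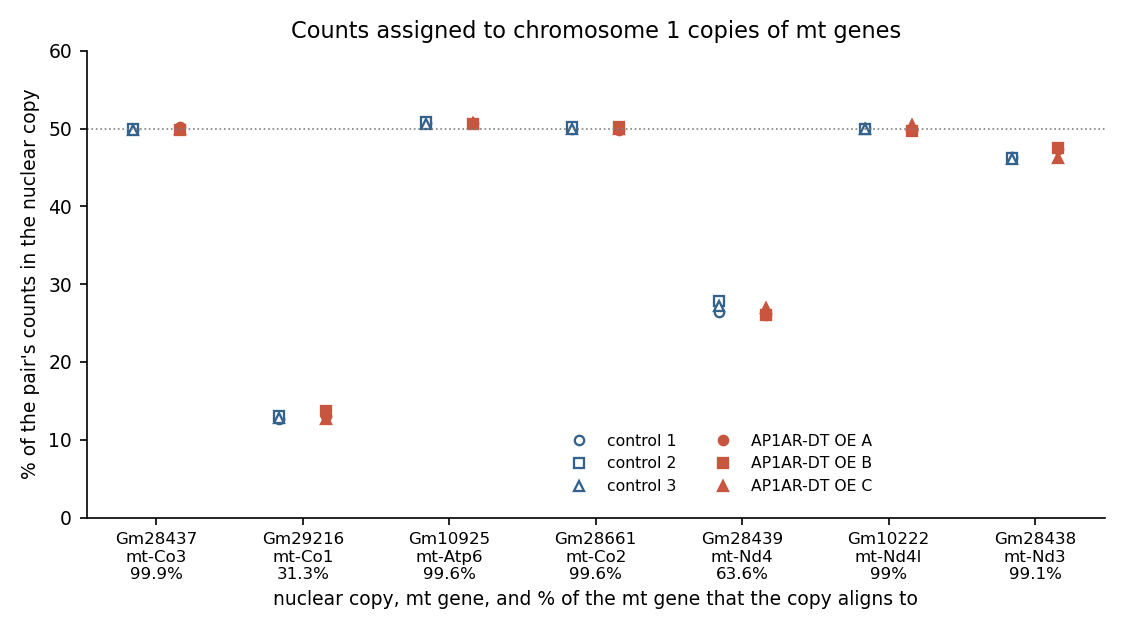
Share of the counts of each pair that were assigned to the nuclear copy (y axis, %), for the 7 copies on chromosome 1 (x axis, with the percentage of the mt gene aligned). Open symbols are the 3 control libraries and filled symbols the 3 *AP1AR-DT* OE libraries, and the dotted line marks 50%. Copies of whole genes sit near 50% in every library, and *Gm29216* near 13%.

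Mitochondrial RNA was a smaller part of the *AP1AR-DT* OE libraries. The 37 genes took 9.86%, 7.20% and 7.63% of the counts in controls 1, 2 and 3, and 6.67%, 5.75% and 6.80% in *AP1AR-DT* OE A, B and C. Every *AP1AR-DT* OE library was below every control library, and control 1 was the highest of the 6. The group means were 8.23% ± 1.43 and 6.41% ± 0.574 (SD, n = 3 each), a ratio of 0.779 (exact permutation test, two-sided, *P* = 0.1, adjusted over 4 shares 0.133). This is the smallest *P* that 3 against 3 can give. The difference of -1.82 percentage points was -1.01 without control 1, and it ran to -2.34 with another library left out. The mRNAs and the rRNAs each showed the same separation of groups, with ratios of 0.779 and 0.769. The tRNA share was 0.0527% ± 0.00584 and 0.0433% ± 0.00614 (SD, n = 3 each), and its groups overlapped (exact permutation *P* = 0.2).

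Gene by gene, all 37 had a Log2FC below 0 and 24 of them passed the study's thresholds for a differentially expressed gene (DEG), |Log2FC| above 0.32 and an unadjusted *P* below 0.05 in the quasi-likelihood test of edgeR. Of all 21844 genes tested, 12.2% passed in either direction and 7.15% as lower, where the median Log2FC was -0.01. The 24 were 11 of the 13 mRNAs, both rRNAs and 11 of the 22 tRNAs. The groups were apart in 24 of the 37 genes, 0 of them higher in *AP1AR-DT* OE mice and 23 of them also DEGs, where 22.4% of all tested genes had groups apart in either direction. Adjusted over all genes by the Benjamini-Hochberg method, edgeR called 0 of the 37 (24 had an unadjusted *P* under 0.05) and limma-voom called 0. DESeq2 called 4, *mt-Nd1*, *mt-Nd3*, *mt-Nd4l* and *mt-Nd5*. Of all 21844 genes tested, edgeR called 6 after this adjustment, limma-voom 4 and DESeq2 450. With a correction of every library for the dependence of its counts on GC content, 1 of the 37 mt genes was a DEG, *mt-Nd4l*, where 4.40% of all genes tested were called lower. The count of 24 also depended on single libraries. It was 11 without *AP1AR-DT* OE B, 14 without control 1, 16 without *AP1AR-DT* OE C and 17 without control 3. Without *AP1AR-DT* OE A it was 18 and without control 2 it was 26. Over all tested genes 836, 1950, 1885, 1161, 957 and 1210 were called lower in these fits, in that order, against 1562. Whichever library was left out, 10 of the mt genes were DEGs.

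**Figure D2:**
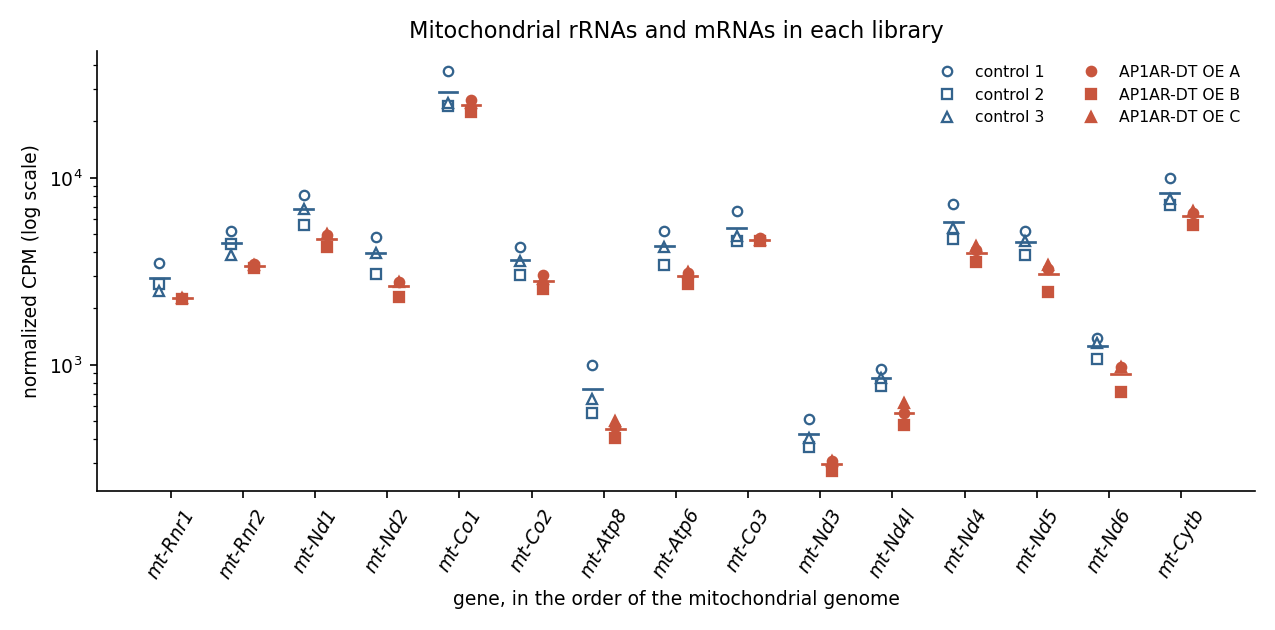
Normalized CPM (y axis, log scale) of the 2 rRNAs and 13 mRNAs, in the order of the mitochondrial genome, in each of 6 libraries. Open symbols are control mice, filled symbols *AP1AR-DT* OE mice, and horizontal bars the group means. Control 1 is the highest library for each of these genes, and the groups are apart for all but *mt-Co1* and *mt-Co3*.

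Complex I, which takes electrons from NADH, has 7 subunits made in the organelle, and all 7 mRNAs were DEGs with lower values in *AP1AR-DT* OE mice. *mt-Nd4l* (MT:9877-10173) had 946, 765 and 849 normalized CPM in controls 1 to 3, and 555, 478 and 628 in *AP1AR-DT* OE A, B and C. The lowest control was above the highest *AP1AR-DT* OE library. Its Log2FC was -0.62 ± 0.134 (SE), with the smallest unadjusted edgeR value of the mt genes (adjusted *P* = 0.295, with 0.00835 to 0.661 over all 25 fits). *mt-Nd5* (MT:11742-13565) had 5177, 3866 and 4587 normalized CPM in control mice, and 3261, 2455 and 3437 in *AP1AR-DT* OE mice. *AP1AR-DT* OE B was the lowest library and the groups did not overlap. Its Log2FC was -0.57 ± 0.174 (SE, edgeR adjusted *P* = 0.295).

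*mt-Nd1* (MT:2751-3707), the first mRNA after the rRNAs, had 8120.5, 5602 and 6788 normalized CPM in control mice, and 4914, 4257 and 4982 in *AP1AR-DT* OE mice. *mt-Nd2* (MT:3914-4951) had 4799, 3062 and 3951 in control mice, and 2781, 2314 and 2770.3 in *AP1AR-DT* OE mice. In both genes control 2 was the lowest control and still above all *AP1AR-DT* OE libraries. Their Log2FC values were -0.54 and -0.59. *mt-Nd4* (MT:10167-11544) had 7234, 4712 and 5355 normalized CPM in control mice, and 4102, 3553 and 4292 in *AP1AR-DT* OE mice, a Log2FC of -0.53 (edgeR adjusted *P* = 0.295). *mt-Nd3* (MT:9459-9806) had 512, 365 and 408 in control mice, and 308, 269.8 and 306 in *AP1AR-DT* OE mice, a Log2FC of -0.54 (edgeR adjusted *P* = 0.295). The groups were apart in both. With the copies on chromosome 1 added, the Log2FC of *mt-Nd4* and *mt-Nd3* was -0.55 and -0.52. The copy held 26.0% to 27.8% of the counts of the pair for *mt-Nd4* and 46.1% to 47.5% for *mt-Nd3*. With parts so alike across libraries, adding the copies could move these values little. *mt-Nd1*, *mt-Nd3*, *mt-Nd4l* and *mt-Nd5* were DEGs with any 1 library left out. *mt-Nd2* was no DEG without *AP1AR-DT* OE B (Log2FC -0.50), and *mt-Nd4* was none without control 1 (-0.34), *AP1AR-DT* OE A (-0.55) or *AP1AR-DT* OE B (-0.46).

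*mt-Nd6* (MT:13552-14070) codes for a complex I subunit and is the single mRNA gene on the minus strand. It had 1384, 1073 and 1311 normalized CPM in control mice, and 978, 712 and 972 in *AP1AR-DT* OE mice. All *AP1AR-DT* OE libraries were below all controls, with a Log2FC of -0.50 (SE 0.162, edgeR adjusted *P* = 0.295). Without control 1 it was no DEG (Log2FC -0.43). Its last 14 bases overlap those of *mt-Nd5*, and strand use is not stated for the counts, so reads of the opposite transcript cannot be told apart. The ratio of *mt-Nd6* to the 12 mRNAs of the other strand was 0.0173 in control mice and 0.0155 in *AP1AR-DT* OE mice, with overlapping groups (exact permutation *P* = 0.4).

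*mt-Cytb* (MT:14145-15288) codes for cytochrome b, the only subunit of complex III made in the organelle. It had 10016, 7145 and 7738 normalized CPM in control mice, and 6499.5, 5579 and 6617 in *AP1AR-DT* OE mice. The groups were apart, with a Log2FC of -0.41 (SE 0.165, edgeR adjusted *P* = 0.318). It was a DEG in 1 of the 6 fits with a library left out, that without control 2, and its Log2FC in them lay between -0.50 and -0.25.

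Complex IV, cytochrome c oxidase, differed from complex I in that 1 of its 3 mt mRNAs passed the thresholds. *mt-Co1* (MT:5328-6872), the catalytic core and the most abundant mt mRNA, had 37353, 24337 and 25003 normalized CPM in control mice, and 26102, 22556 and 25251 in *AP1AR-DT* OE mice. Control 1 was high and the other 5 libraries lay close together, so the groups overlapped (Log2FC -0.23, standard error 0.207, edgeR adjusted *P* = 0.612, and -0.0007 without control 1). *mt-Co3* (MT:8607-9390) had 6643, 4573 and 4862 in control mice, and 4761, 4577 and 4642 in *AP1AR-DT* OE mice. Again control 1 was high and the groups overlapped (Log2FC -0.20, standard error 0.163, edgeR adjusted *P* = 0.572). *mt-Co2* (MT:7013-7696) had 4260.1, 3028 and 3575 in control mice, and 3009, 2529 and 2882 in *AP1AR-DT* OE mice. The lowest control and the highest *AP1AR-DT* OE library differed by little (Log2FC -0.37, standard error 0.153, edgeR adjusted *P* = 0.325). *mt-Co2* was no DEG when its nuclear copy was added, with DESeq2 size factors, with scaling without mt rows, with a minimum of 10 counts in every library, or without control 1, control 3 or any of the *AP1AR-DT* OE libraries, with Log2FC from -0.47 to -0.23 over the 6 fits with a library left out.

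The genes of complex V share bases. *mt-Atp8* (MT:7766-7969) and *mt-Atp6* (MT:7927-8607) are read from 1 transcript and overlap by 43 bases, shown in capitals with 30 bases on either side (GRCm38, plus strand, MT:7897-7999).
*mt-Atp8* into *mt-Atp6*: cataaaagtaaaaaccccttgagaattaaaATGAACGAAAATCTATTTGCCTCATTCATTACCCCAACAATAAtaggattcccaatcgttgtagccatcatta
The capitals start with the ATG of *mt-Atp6* and end with the TAA of *mt-Atp8*, and coverage of this stretch can count toward either gene. *mt-Atp8* had 1002, 555 and 657 normalized CPM in control mice, and 463, 407 and 498 in *AP1AR-DT* OE mice. *mt-Atp6*, the subunit that passes protons through the membrane, had 5201, 3413 and 4285 in control mice, and 3112, 2708 and 3118 in *AP1AR-DT* OE mice. Both had groups apart, with Log2FC values of -0.69 (standard error 0.219, edgeR adjusted *P* = 0.295) and -0.53 (standard error 0.171, edgeR adjusted *P* = 0.295). Neither was a DEG without *AP1AR-DT* OE B (Log2FC -0.62 and -0.46), and without control 1 the Log2FC of *mt-Atp8* was -0.41.

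The 2 rRNAs of the mitochondrial ribosome were both DEGs. *mt-Rnr1* (MT:70-1024), the rRNA of the small subunit, had 3522, 2700.4 and 2488 normalized CPM in control mice, and 2270.03, 2237 and 2288 in *AP1AR-DT* OE mice. *mt-Rnr2* (MT:1094-2675), the rRNA of the large subunit, had 5188, 4428 and 3867 in control mice, and 3459, 3291 and 3424 in *AP1AR-DT* OE mice. The *AP1AR-DT* OE libraries were close to each other and below all controls in both genes. The Log2FC was -0.36 ± 0.147 (SE) for *mt-Rnr1* (edgeR adjusted *P* = 0.322), and -0.41 ± 0.135 (SE) for *mt-Rnr2* (edgeR adjusted *P* = 0.295). *mt-Rnr1* was a DEG in 2 of the 6 fits with a library left out and *mt-Rnr2* in 3, and without control 1 the Log2FC was -0.19 and -0.29. The ratio of rRNA to mRNA counts was 0.0999 in control mice and 0.0981 in *AP1AR-DT* OE mice (exact permutation *P* = 1). The groups also overlapped in the ratio of *mt-Rnr2* to *mt-Rnr1* (exact permutation *P* = 0.3).

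The tRNA genes, of 59 to 75 bases, are shorter than the sequenced reads, so a read over one of them also covers its neighbours or a precursor. Their mean counts ran from 76.2 to 7306. The most counted was *mt-Ts1* (MT:6870-6938, minus strand), a tRNA gene for serine whose 3′ end overlaps that of *mt-Co1* by 3 bases on the opposite strand, and the 4 next were *mt-Te*, *mt-Tc*, *mt-Tn* and *mt-Ty*. All 5 lie on the minus strand. *mt-Ts1* and *mt-Tr* are shown on their own strand, 5′ to 3′, because their differences between groups lay near opposite ends of the range.
*mt-Ts1*: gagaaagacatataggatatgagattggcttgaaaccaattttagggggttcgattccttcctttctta
*mt-Tr*: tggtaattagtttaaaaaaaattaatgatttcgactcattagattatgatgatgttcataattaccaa

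Among the tRNAs the strands differed in their counts of DEGs, 9 of 14 on the plus strand (median Log2FC -0.72) and 2 of 8 on the minus strand (median -0.16). On the minus strand, 5 that were no DEGs lie close together around *mt-Co1* (*mt-Ta*, *mt-Tn*, *mt-Tc*, *mt-Ty* and *mt-Ts1*). Strand and position can therefore not be told apart here. Of all tested genes 7.15% were called lower. With the GC correction 0 tRNAs were DEGs on either strand, with medians of -0.34 and 0.20. Strand use is not stated for the counts, so reads of the opposite strand cannot be told apart. *mt-Ts1* had 165, 136 and 143 normalized CPM in control mice, and 159, 139.8 and 138 in *AP1AR-DT* OE mice. Its groups overlapped, with a Log2FC of -0.03 (SE 0.107). *mt-Tc*, *mt-Tn* and *mt-Ty*, for cysteine, asparagine and tyrosine, also overlapped, with Log2FC from -0.17 to -0.13. *mt-Te* (MT:14071-14139), for glutamate, next to *mt-Nd6*, was a DEG with any 1 library left out. It had 101, 75.8 and 106 in control mice, and 67.4, 50.8 and 71.0 in *AP1AR-DT* OE mice, a Log2FC of -0.58 ± 0.175 (SE, edgeR adjusted *P* = 0.295).

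*mt-Tr* (MT:9808-9875), for arginine, had 10.3, 6.73 and 7.85 normalized CPM in control mice, and 4.88, 2.95 and 5.05 in *AP1AR-DT* OE mice. *mt-Tk* (MT:7700-7764), for lysine, had 4.60, 3.43 and 3.42 in control mice, and 2.51, 1.84 and 1.85 in *AP1AR-DT* OE mice. In both genes every *AP1AR-DT* OE library was below every control, with Log2FC values of -0.95 (standard error 0.268, edgeR adjusted *P* = 0.295) and -0.89 (standard error 0.241, edgeR adjusted *P* = 0.295). *mt-Tl2*, for leucine, had 11.8, 11.9 and 12.9 in control mice, and 8.73, 3.52 and 6.38 in *AP1AR-DT* OE mice, a Log2FC of -0.97 (standard error 0.307). *mt-Tg*, for glycine, had 10.5, 9.34 and 9.81 in control mice, and 7.30, 3.99 and 6.48 in *AP1AR-DT* OE mice, a Log2FC of -0.74 (standard error 0.235). *AP1AR-DT* OE B was the lowest library in each of these 4 except *mt-Tk*, where B and C were level. All 4 were DEGs with any 1 library left out.

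Of the 13 mt genes that were no DEGs, 8 were neighbours on the genome. In this run, from *mt-Tw* to *mt-Td*, lie *mt-Co1* and 7 tRNA genes, 5 of the 8 genes are on the minus strand, and Log2FC ran from -0.46 to -0.03. Of the other 29 mt genes 24 were DEGs. The run was chosen after its values were seen and has no test.

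**Figure D3:**
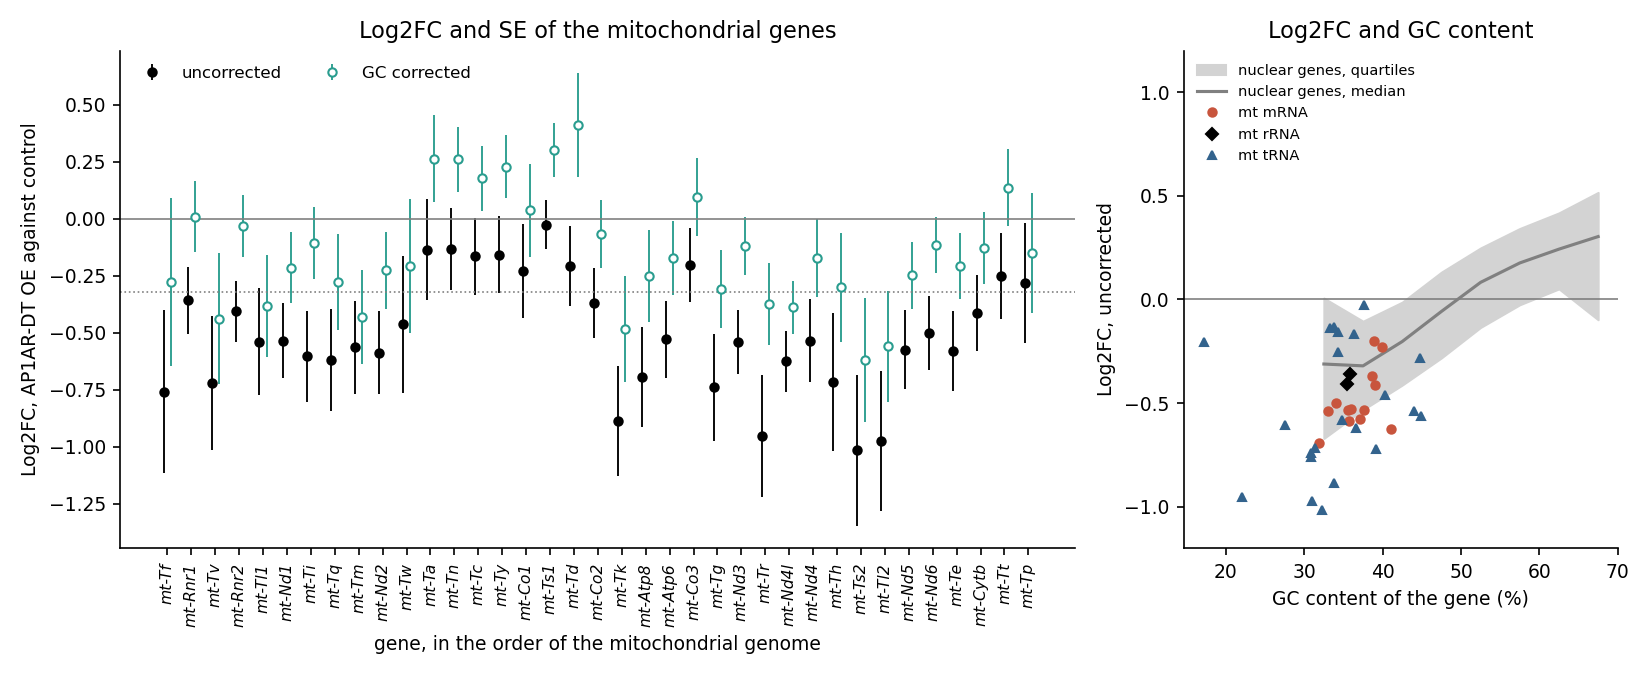
Left, Log2FC of *AP1AR-DT* OE against control with its standard error for the 37 mt genes in genome order, uncorrected (filled) and with the counts corrected for GC content (open), with a dotted line at -0.32. Right, uncorrected Log2FC against GC content (%) for mt mRNAs, rRNAs and tRNAs, with the median and quartiles of nuclear genes in bins of 5% from 30% to 70%. All 37 filled points lie below 0, and 27 of the open points do.

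Within the pool of mt mRNAs, complex IV took a larger part in *AP1AR-DT* OE mice and complex I a smaller part. *mt-Co1* held 40.3%, 38.9% and 36.0% of the counts of the 13 mRNAs in controls 1 to 3, and 42.9%, 43.1% and 41.8% in *AP1AR-DT* OE A, B and C. *mt-Co3* held 7.17%, 7.32% and 7.01%, and 7.82%, 8.74% and 7.69%. For both genes all *AP1AR-DT* OE libraries were above all controls (exact permutation *P* = 0.1, the smallest possible, adjusted over 13 genes 0.163). For 6 mRNAs, *mt-Nd1*, *mt-Nd2*, *mt-Nd3*, *mt-Nd4*, *mt-Atp6* and *mt-Atp8*, all *AP1AR-DT* OE libraries had a smaller share than all controls, and for the other 5 the groups overlapped. The 7 mRNAs of complex I together made up 31.7% ± 1.63 in control mice and 27.8% ± 0.998 in *AP1AR-DT* OE mice (SD, n = 3 each). The 3 of complex IV made up 50.5% ± 2.02 and 55.5% ± 1.18, and the 2 of complex V 6.72% ± 0.388 and 5.94% ± 0.0563 (SD, n = 3 each). The groups were apart for each of these complexes (exact permutation *P* = 0.1, adjusted over 4 complexes 0.133). *mt-Cytb* of complex III made up 11.1% ± 0.311 and 10.8% ± 0.170 (SD, n = 3 each), with overlap. With the nuclear copies added, complex I was at 28.2% ± 1.31 and 24.6% ± 1.06 (SD, n = 3 each), and the direction of each complex was the same. Shares of a single total are not independent, and a larger part for *mt-Co1* leaves less for the other mRNAs. Median GC content was 38.9% for complex IV, 35.7% for complex I and 33.9% for complex V, and the shares were not corrected for this.

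**Figure D4:**
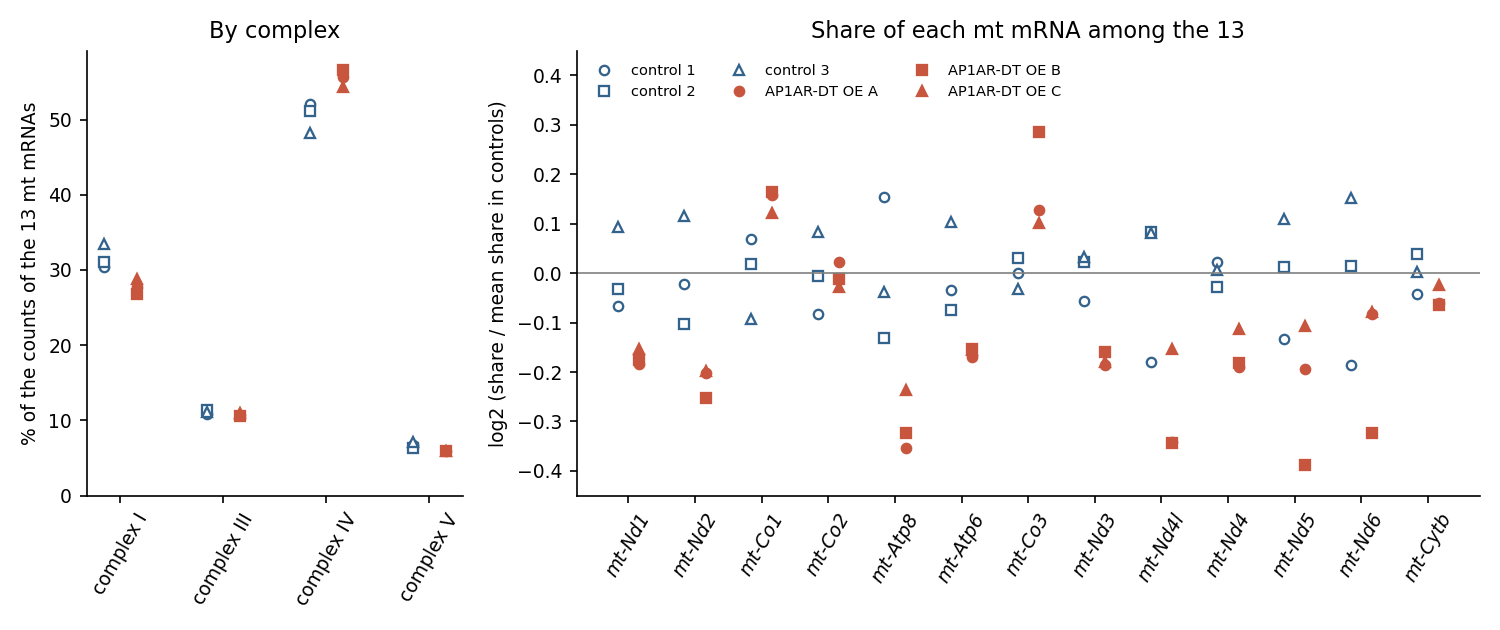
Left, percentage of the counts of the 13 mt mRNAs taken by each respiratory complex in each library. Right, log2 of the share of each mRNA relative to its mean share in control mice. Open symbols are control mice and filled symbols *AP1AR-DT* OE mice. *mt-Co1* and *mt-Co3* lie above the controls in all 3 *AP1AR-DT* OE libraries.

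Per length, and with the nuclear copies added, the order of the mt mRNAs was nearly the same in both groups. *mt-Co1* was first in every library, at 21456 ± 5409 normalized CPM per kilobase in control mice and 18350.3 ± 1300.4 in *AP1AR-DT* OE mice (SD, n = 3 each). *mt-Co3*, *mt-Atp6* and *mt-Co2* followed, and the lowest levels per kilobase were those of *mt-Nd5*, *mt-Nd6* and *mt-Nd3*. *mt-Co3* at 13655 ± 2861 and *mt-Atp6* at 12808 ± 2657 (SD, n = 3 each) differed by less than the spread among control mice. In *AP1AR-DT* OE mice they were at 11879 ± 285 and 8871 ± 711 (SD, n = 3 each), apart in all libraries.

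The mt genes are poor in G and C, and nuclear genes of the same base composition also had lower values in the *AP1AR-DT* OE libraries. GC content was between 31.9% and 41.1% in the mt mRNAs, with a median of 37.1%, against 49.4% over the tested genes. Of the 2088 nuclear genes within that range, 448 were called lower (21.5%) and 10 higher, with a median Log2FC of -0.30. Of the 94 among them with a mean above 100 normalized CPM, 26 were called lower (27.7%), with a median of -0.22. The 13 mt mRNAs had 11 called lower and a median of -0.53. With the GC correction, 87 of the 2088 nuclear genes were called lower, where 4.40% of all tested genes were. The median Log2FC of the 2088 was then -0.01. The correction removes the trend with GC content across genes, so this value was largely set in advance. The single mt DEG with this correction was *mt-Nd4l* (Log2FC -0.39, edgeR adjusted *P* = 0.534), whose GC content of 41.1% is the highest of the mt mRNAs. The corrected Log2FC of the mt mRNAs ran from -0.39 to 0.09 with a median of -0.17, and 27 of the 37 genes were below 0. *mt-Co1* was at 0.04 and *mt-Co3* at 0.09, while the 7 mRNAs of complex I lay between -0.39 and -0.11. *mt-Ts1* was at 0.30 (edgeR adjusted *P* = 0.542), under the fold threshold. The mt genes lie at the edge of the GC range and are far above most nuclear genes in level, and how well a curve fitted across all genes serves them was not tested.

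Nuclear genes that serve the same organelle were taken from lists written from general knowledge. Of 83 tested nuclear genes for subunits of the respiratory chain and ATP synthase, 0 were called lower by edgeR and 6 higher. Of all tested genes 7.15% were called lower and 5.10% higher. The median Log2FC of the 83 was 0.13, and 0.08 after the GC correction. *Cox6b1*, a complex IV subunit, had 18.3, 18.0 and 22.3 normalized CPM in control mice, and 32.1, 32.6 and 24.3 in *AP1AR-DT* OE mice. The groups were apart, with a Log2FC of 0.60 (SE 0.157, edgeR adjusted *P* = 0.295). *Uqcrq* of complex III and *Ndufa3* of complex I were also higher without overlap, with Log2FC values of 0.39 and 0.46. The summed level of the 83 genes was 4955 ± 223 normalized CPM in control mice and 5567 ± 409 in *AP1AR-DT* OE mice (SD, n = 3 each), with overlap. Levels of single genes differed widely, with *Atp5a1* at 669 and *Cox7c* at 1.92 normalized CPM in control mice. Pseudogenes of these nuclear genes were not searched. The ratio of the mt mRNAs to this sum was 18.0, 13.3 and 13.8 in controls 1 to 3, and 10.8, 8.82 and 11.8 in *AP1AR-DT* OE A, B and C. Each *AP1AR-DT* OE library was below each control (exact permutation *P* = 0.1, the smallest possible). The summed mt mRNAs alone separated the groups at the same *P*, so the ratio is no separate evidence. The ratio also sets genes with a median GC content of 37.1% against genes with one of 50.2%, and was not corrected for this. After the GC correction 6 of the 83 were called higher, where 2.76% of all tested genes were, and 1 lower, where 4.40% were. The count of 6 was 2 without *AP1AR-DT* OE B and 18 without *AP1AR-DT* OE C, and 10 without control 3.

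Of 78 tested genes for proteins of the mitochondrial ribosome, 8 were called higher and 0 lower by edgeR, where 5.10% and 7.15% of all tested genes were, with a median Log2FC of 0.12. The 3 with the smallest *P* were *Mrpl52* (Log2FC 0.61), *Mrps26* (0.33) and *Mrpl15* (0.32), all with groups apart. The DEGs numbered 2 without *AP1AR-DT* OE A or *AP1AR-DT* OE B, 4 without control 2, and 6, 1 of them lower, without control 3. After the GC correction 6 were called higher, where 2.76% of all tested genes were.

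**Figure D5:**
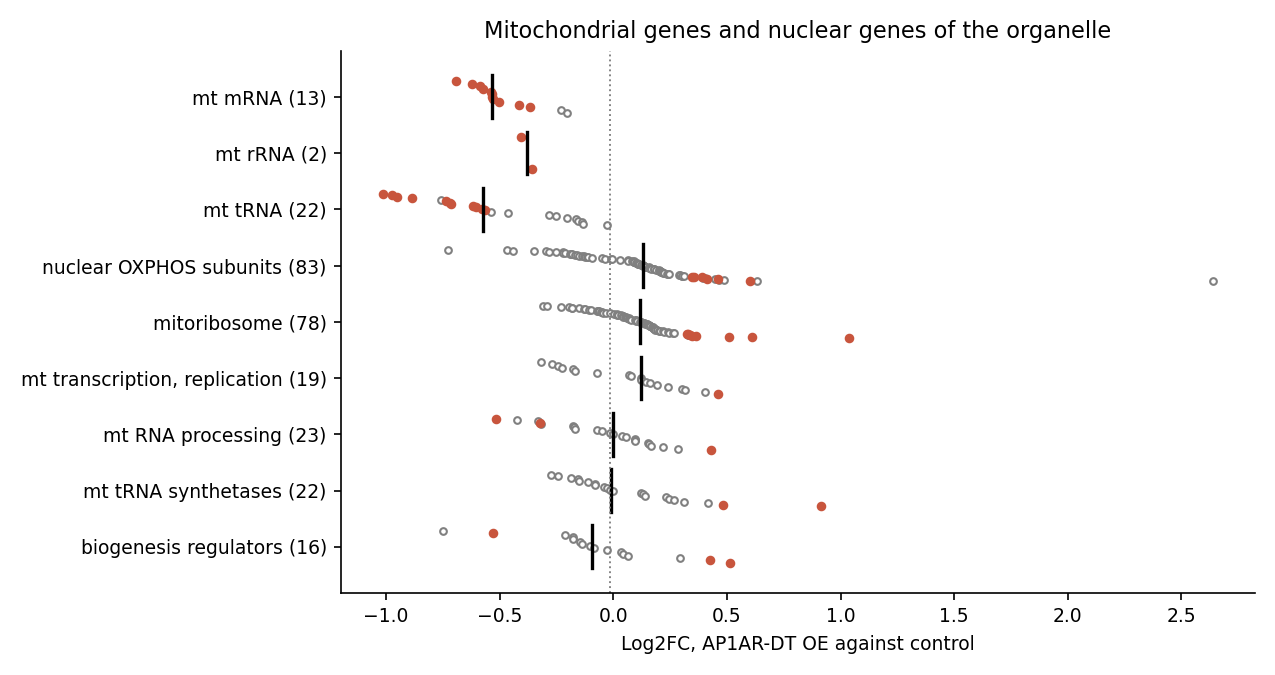
Log2FC of *AP1AR-DT* OE against control (x axis) for the mt genes by class and for 6 lists of nuclear genes, with the number of tested genes in brackets. Filled points are DEGs, open points are not, black bars are medians, and the dotted line is the median of all tested genes. The medians of the mt classes lie between -0.57 and -0.38, and those of the nuclear lists between -0.09 and 0.13.

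Of 19 genes for transcription and replication of the mitochondrial genome, 1 was called higher by edgeR, *Polg*, the DNA polymerase of the organelle, with 37.8, 36.6 and 35.4 normalized CPM in control mice and 56.8, 49.0 and 45.2 in *AP1AR-DT* OE mice. Its Log2FC was 0.46 ± 0.112 (SE, edgeR adjusted *P* = 0.295). The count of 1 is near the 5.10% of all tested genes that were higher, it was also 1 without control 3, and it was 5 (1 of them lower) without *AP1AR-DT* OE C and 2 without control 1. *Polrmt*, the RNA polymerase, had 22.9, 19.8 and 21.6 in control mice, and 30.2, 26.9 and 22.8 in *AP1AR-DT* OE mice, with a Log2FC of 0.32 that did not pass (edgeR adjusted *P* = 0.331). *Tfam* had 30.2, 38.3 and 32.8 in control mice, and 28.5, 29.3 and 31.7 in *AP1AR-DT* OE mice, with a Log2FC of -0.18 (edgeR adjusted *P* = 0.498). The groups overlapped in both.

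Of 23 genes for processing and turnover of mitochondrial RNA, 1 was called higher and 2 lower, near the 5.10% and 7.15% of all tested genes. Without control 3 there were 5 DEGs (4 of them lower) and without *AP1AR-DT* OE B 1. *Fastk*, whose product keeps *mt-Nd6* mRNA, had 45.9, 42.2 and 42.9 normalized CPM in control mice, and 61.7, 63.7 and 50.9 in *AP1AR-DT* OE mice. The groups were apart, with a Log2FC of 0.43 (SE 0.114, edgeR adjusted *P* = 0.295). *Pde12*, which removes poly(A) tails in the organelle, and *Rexo2*, which degrades short RNA there, had Log2FC values of -0.32 and -0.52. After the GC correction neither was called. Of 22 genes for mitochondrial tRNA charging, 2 were called higher, where 5.10% of all tested genes were. There were 4 DEGs without control 3 or *AP1AR-DT* OE C, and 1 without control 1, *AP1AR-DT* OE A or *AP1AR-DT* OE B. *Lars2*, which charges the leucine tRNAs, had 140.3, 122 and 99.7 in control mice, and 182, 284 and 216 in *AP1AR-DT* OE mice. Its Log2FC was 0.91 ± 0.192 (SE, edgeR adjusted *P* = 0.295) and 0.85 after the GC correction. *Qrsl1*, needed for the glutamine tRNA, had a Log2FC of 0.48.

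Of 16 regulators of mitochondrial biogenesis, 2 were called higher and 1 lower, where 5.10% and 7.15% of all tested genes were, and the counts were the same without control 3. *Esrra*, a nuclear receptor that works with PGC-1 alpha, and *Sirt3*, the deacetylase of the organelle, had Log2FC values of 0.51 (standard error 0.134) and 0.43 (standard error 0.114). *Creb1*, a transcription factor of the cAMP pathway, was at -0.53 (standard error 0.145) and at -0.24 after the GC correction, where it did not pass. *Ppargc1a*, which codes for PGC-1 alpha, had 37.7, 37.3 and 40.0 normalized CPM in control mice, and 33.3, 30.7 and 39.7 in *AP1AR-DT* OE mice. *Nrf1*, a transcription factor for nuclear mitochondrial genes, had 16.7, 22.6 and 16.2, and 18.2, 20.3 and 19.7. Both overlapped between groups, with Log2FC values of -0.15 (edgeR adjusted *P* = 0.577) and 0.07 (edgeR adjusted *P* = 0.865).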

How the data were processed

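Per the labels, RNA was extracted with TRIzol and libraries were made with the Illumina TruSeq RNA kit. The paper states that the authors used Bowtie2 with default parameters for mapping to GRCm38, and took counts with StringTie and its Python script, so the deposited counts are whole numbers derived from coverage, not normalized. The submitters' processing notes instead name TopHat2 2.0.4, SAMtools, HTSeq, Cuffdiff, edgeR 2.6.12 and the build mm9. Use of strand is not given in the sources used here. The start and end of all 37 mt genes in the table equal those of GENCODE vM21 on GRCm38. The mitochondrial sequence is the same in both builds, so this match does not tell them apart. The table's columns of the authors' own comparison hold fold changes and P-values and were not used.

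Groups came from the labels. Counts were tested with edgeR 4.0.16 in R 4.3.3 (filterByExpr, TMM, quasi-likelihood F-test, two-sided, group as the only term, all 6 libraries, Benjamini-Hochberg over all genes). The thresholds for DEGs, |Log2FC| above 0.32 and *P* below 0.05, are those of the paper. Shares and ratios were compared with two-sided exact permutation tests, whose smallest *P* is 0.1. Replicates are separate mice by their labels. The GC and length corrections were natural splines with 5 degrees of freedom on genes above a mean log2 CPM of 2, entered as offsets. Nuclear copies were searched with blastn 2.17.0. Other alternatives were DESeq2 1.42.0 and its size factors, limma-voom (limma 3.58.1), library totals, scaling without mt rows or to the mt mRNA total, no filter, at least 10 counts in every library, nuclear copies added, and leaving out each library. The models were run on simulated counts with no GC trend, no library that stood apart and no reads shared between genes. That run does not bear on those features of the data.

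The members, lists and tests were chosen with earlier results of these data known. Named genes were all mt mRNAs and rRNAs, the 5 tRNAs with the highest mean count and up to 5 DEG tRNAs by smallest *P*, and of each nuclear list up to 3 DEGs in each direction by smallest *P*. *Polrmt*, *Tfam*, *Ppargc1a* and *Nrf1* were named whatever their values, as were the 3 most counted nuclear copies.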

Additional observations from a re-analysis of the deposited data

How the results depend on the processing

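Over the alternatives the 37 mt genes gave between 0 and 26 DEGs, 24 as reported. With library size set to the mt mRNA total, which compares genes within the organelle, there were 0 by edgeR (0 with an unadjusted *P* under 0.05, and no other tool was run at this scaling), and with the GC correction 1, also with the nuclear copies added. The other scalings, tools, filters and the length correction gave 22 to 24. Leaving out a library gave 11 to 26, and 11 to 26 with the copies added, a setting chosen after seeing the data. DEGs over all genes were 1563 with the GC correction and 1564 with the copies added too, against 2675, and 1430 to 3508 with a library left out (1423 to 3508 with the copies added).

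The Log2FC of *mt-Co1*, *mt-Co3*, *mt-Rnr1*, *mt-Ts1*, *mt-Tc*, *mt-Tn* and *mt-Ty* was above 0 in some fits. Scaled to the mt mRNA total these were 0.15, 0.17, 0.0098, 0.33, 0.19, 0.22 and 0.20 in that order, with the GC correction 0.038, 0.094, 0.0098, 0.30, 0.18, 0.26 and 0.23, and with the copies added as well 0.042, 0.094, 0.0082, 0.30, 0.18, 0.26 and 0.23. With the length correction *mt-Ts1* was at 0.067. With a library left out *mt-Ts1* ran from -0.093 to 0.058, *mt-Tn* from -0.23 to 0.019, and *mt-Co1* from -0.33 without control 2 to 0.0024 without control 1 and with the copies added. The difference in the share of *mt-Co2* ran from -0.15 to 0.13 percentage points, that of the log2 rRNA to mRNA ratio from -0.080 to 0.078, and that of the log2 tRNA to mRNA ratio from -0.018 to 0.13. The cause of these changes was not tested.

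With a library left out, DEGs ran from 2 to 18 for nuclear respiratory chain genes, 2 to 11 for the mitochondrial ribosome, 1 to 5 for transcription and replication (5 without *AP1AR-DT* OE C), 1 to 5 for RNA processing (5 without control 3) and 1 to 4 for tRNA charging (4 without *AP1AR-DT* OE C or control 3). For transcription and replication there were 2 with library totals and 2 with DESeq2, and for RNA processing 1 with the GC correction. No paired analysis was possible because the columns of the *AP1AR-DT* OE libraries carry no mouse number and the labels of the 2 groups share a single number. Depth is high for mRNAs and rRNAs, so the spread among 3 mice per group limits their precision, while tRNAs had as few as 76.2 mean counts.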
